A study of Mus musculus with 40 samples.

Results

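The fragments described here are those cloned from gene deserts, the long stretches of a genome that lie far from any known gene. A fragment was counted as a gene desert fragment when its centre lay outside every curated RefSeq transcript of the mouse genome (build mm10, accessions of type NM or NR) and over 100000 bp from the nearest start site of such a transcript. Of the 354604 different fragments placed on chromosomes, 21722 (6.13%) met this rule, whereas 26.8% of the sequenced bases of chromosomes 1 to 19 and X did. The rule used position alone and no reporter value.

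Enhancers are stretches of DNA that bind transcription factors and raise the activity of a promoter, which may lie far away on the same chromosome. Gene deserts are known to hold many enhancers of developmental regulators, and the genes that flank deserts are often transcription factors or signalling molecules. In a reporter assay the fragment is taken away from its own locus, so its activity is read next to a minimal promoter and not at its native gene.

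The screen was made in the mouse HM-1 ES cell line (129/ola), in which Tn5-cut open chromatin fragments were cloned before an HSP68 minimal promoter and Venus-YFP and placed into the repaired Hprt locus, so that each cell carried 1 fragment. Cells were sampled at 5 stages of blood differentiation in culture, namely ES, hemangioblast (HB), hemogenic endothelium 1 and 2 (HE1, HE2) and hematopoietic progenitors (HP), and each stage was sorted by YFP into Negative, Low, Medium and High gates. The Negative gate was set with a line that carried the minimal promoter and reporter without a fragment. There were 2 replicates, each from its own transfection as the methods describe it, and so 40 libraries in 20 groups of 2. The word sort stands for the 4 libraries of a stage in a replicate. Fragments of its 3 YFP-positive gates (Low, Medium, High) are called positive and those of its Negative gate negative, and a fragment can be both. All groups share the cell line and the locus, the plasmid libraries of all stages were mixed, and the 5 stages of a replicate come from the same transfected cells, so p-values over the 10 sorts measure the spread between sorts and not between independent pools of cells.

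The libraries held 654 to 51146 fragments, of which 77 to 4223 were gene desert fragments. The files list each fragment once, without read counts, so the number of fragments is the depth. Some libraries shared many identical fragments. In HE1 of replicate 1, 73.6% of the negative gene desert fragments were also positive, as were 71.2% of the other negative fragments. In HP of replicate 1 this held for 0 of 345 gene desert fragments, which allows a share of up to 0.870%. It also held for 0% of the other negative fragments there. In HE1 of replicate 2 the Low library alone held 31902 of the sort's 34795 positive fragments. The difference between positive and negative fragments is given with and without these sorts.

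The places with most gene desert fragments were short regions, where a region is a run of overlapping fragments from all libraries. The 8 regions with most held 77 to 190 different fragments each. For 5 of them the stretch of 300 bases with the deepest cover is shown, on the forward strand of mm10 (GRCm38), so that the letters of much-sampled desert elements can be read beside their counts. The other 3, near Zeb1, Zfp608 and Klf6, are described without their letters, although the one near Zeb1 held the most fragments. Capitals mark matches to the motifs described further on.

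Between Pcmtd1 and Sntg1, chr1:7397721-7398020: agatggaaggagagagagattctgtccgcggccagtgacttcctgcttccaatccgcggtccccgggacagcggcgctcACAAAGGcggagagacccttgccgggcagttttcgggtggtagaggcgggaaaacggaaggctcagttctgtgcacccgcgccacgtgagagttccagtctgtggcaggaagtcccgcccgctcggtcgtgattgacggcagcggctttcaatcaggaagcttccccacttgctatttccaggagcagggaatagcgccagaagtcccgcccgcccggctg
Between Tmem161b and Ccnh, chr13:84348115-84348414: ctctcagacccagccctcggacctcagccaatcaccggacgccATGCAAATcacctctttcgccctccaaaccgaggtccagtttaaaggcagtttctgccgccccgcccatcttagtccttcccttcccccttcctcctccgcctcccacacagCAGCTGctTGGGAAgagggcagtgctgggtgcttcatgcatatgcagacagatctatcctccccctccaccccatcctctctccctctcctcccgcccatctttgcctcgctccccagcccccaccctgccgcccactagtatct
Between Rps24 and Zmiz1, chr14:24779156-24779455: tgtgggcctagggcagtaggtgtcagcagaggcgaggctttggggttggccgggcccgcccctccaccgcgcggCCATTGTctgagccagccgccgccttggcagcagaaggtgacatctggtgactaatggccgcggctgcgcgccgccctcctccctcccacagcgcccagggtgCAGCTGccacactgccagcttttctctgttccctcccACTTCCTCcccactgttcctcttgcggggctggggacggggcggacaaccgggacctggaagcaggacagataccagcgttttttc
Between Pex2 and 1700008P02Rik, chr3:5860479-5860778: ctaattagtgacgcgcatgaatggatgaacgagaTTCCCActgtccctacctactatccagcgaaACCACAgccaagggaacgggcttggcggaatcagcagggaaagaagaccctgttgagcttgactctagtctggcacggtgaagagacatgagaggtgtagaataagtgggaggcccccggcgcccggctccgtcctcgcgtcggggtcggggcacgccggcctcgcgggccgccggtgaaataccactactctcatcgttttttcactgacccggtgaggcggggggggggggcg
Between Klf4 and Actl7b, chr4:55651159-55651458: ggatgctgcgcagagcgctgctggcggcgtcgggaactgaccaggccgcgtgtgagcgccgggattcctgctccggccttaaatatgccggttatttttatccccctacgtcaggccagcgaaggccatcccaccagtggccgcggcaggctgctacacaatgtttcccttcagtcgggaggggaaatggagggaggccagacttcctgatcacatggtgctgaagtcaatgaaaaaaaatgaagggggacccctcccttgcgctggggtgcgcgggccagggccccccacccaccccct

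The GC content of the 5 stretches lay between 61.0% and 66.7%, and they held 11 to 25 CpG dinucleotides. Of the 3 regions not shown, the fragments near Zeb1 had a mean GC content of 63.5%, those near Zfp608 46.9% and those between Akr1e1 and Klf6 51.5%. The stretch between Tmem161b and Ccnh carried an octamer ATGCAAAT, the letters bound by OCT factors of pluripotent cells, with an E-box CAGCTG and an RBPJ match TGGGAA. The stretch between Rps24 and Zmiz1 carried a SOX, an E-box and a PU.1 match, and the stretch between Pcmtd1 and Sntg1 a SOX match. The stretch near Klf4 carried no match to any of the 11 motifs. In the stretch near Pex2, which held a RUNX and an RBPJ match, 63.8% of the words of 30 bases occurred more than once on the chromosomes, up to 14 times. In each of the other 4 stretches each of the 271 such words occurred once. Whether the sequence near Pex2 is a copy of ribosomal RNA, and whether fragments of other copies were placed there, was not tested.

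The region between Zeb1 and Arhgap12 (chr18:5989508-5990462) held the most gene desert fragments, 190, of which 160 were positive in some sort and 63 negative. Zeb1 encodes a zinc finger repressor known for its part in epithelial-mesenchymal transition. Its positive fragments numbered 25 in ES, 36 in HB, 71 in HE1, 34 in HE2 and 19 in HP, against 13, 10, 32, 5 and 10 negative ones. The region was therefore seen at all stages and on both sides of the gate. Positive joins 3 gates and negative is 1, so positive fragments were the more numerous in general. Other fragments had 2.77 positive ones per negative one in ES, 4.45 in HB, 3.04 in HE1, 6.52 in HE2 and 2.00 in HP. Their positive ones were also most numerous in HE1, with 126942. The same background holds for the counts of all places named below. It lay 34496 bp from the end of Arhgap12 that faces the desert, and 146146 bp from the nearest curated start site, so that far from a start site did not always mean far from a gene body. Of the 8280 regions with a gene desert fragment, called desert regions here, 1478 (17.9%) lay within 100000 bp of the body of a curated protein-coding gene.

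The region between Pcmtd1 and Sntg1 (chr1:7397636-7398476) held 121 gene desert fragments, 98 positive and 42 negative. Its fragments reached to within 1 bp of the start site of Gm26901, a lincRNA of the GENCODE vM21 annotation that the curated RefSeq set does not cover. The region between Tmem161b and Ccnh (chr13:84347903-84348609) held 116, of which 105 were positive. Ccnh encodes cyclin H, a subunit of the CDK-activating kinase. The OCT match shown above was carried by 62 of these 116 fragments. Positive fragments of this region numbered 23 in ES, 22 in HB, 36 in HE1, 18 in HE2 and 19 in HP, and negative ones 6, 2, 13, 2 and 2.

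The region between Zfp608 and Gramd3 (chr18:55106869-55107618) differed in content from the GC-rich ones. It held 86 gene desert fragments with a mean GC content of 46.9%, and 52 of the 86 carried the GATA letters AGATAAG, which blood GATA factors bind. No fragment of it was found in ES in either gate, while positive fragments numbered 28 in HB, 23 in HE1, 28 in HE2 and 17 in HP. Its negative fragments were 1, 10, 1 and 1 at these stages. Since the Negative gate of ES held none either, its activity in ES was not measured.

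The region near Pex2, which encodes a peroxisome assembly factor, was found in ES with 21 positive and 12 negative fragments and was not found in HB. Since its sequence recurs elsewhere, these counts may not all belong to this place. It held 38 positive and 15 negative fragments in HE1. The region beside Klf4, a pluripotency and reprogramming factor, held 82 fragments, 66 positive and 23 negative, at 118800 bp from the Klf4 start site. The region between Akr1e1 and Klf6 (chr13:4771197-4771999) held 77, and 56 of them carried the AP-1 letters TGAGTCA. The region between Rps24 and Zmiz1, 288551 bp from the start of Rps24, held 103, of which 86 were positive.

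Fragments of these 8 regions came almost wholly from replicate 1. Replicate 1 held 180 of the 190 fragments of the Zeb1 region, all 116 of the Tmem161b region and 80 of the 82 of the Klf4 region. The 20 regions with most fragments held 1645 gene desert fragments, 7.57% of the total. At the other end, 72.8% of the 8280 desert regions held 1 gene desert fragment. Among regions without a gene desert fragment, 59.0% consisted of 1 fragment.

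Desert regions were rarely shared between replicates. There were 308 (3.72%) seen in both replicates, 1794 (21.7%) in replicate 1 alone and 6178 (74.6%) in replicate 2 alone. For the 66768 regions that held other fragments these shares were 9.97%, 34.5% and 55.6%, given as a description. The HE1 Low library of replicate 2 was the only source of 2164 desert regions, and without it 249 of 6116 desert regions (4.07%) were in both replicates. Among fragments, 13316 gene desert fragments were found in replicate 1 and 8537 in replicate 2, with 131 in both. In replicate 2, 62.5% of the gene desert fragments were alone in their region, against 5.26% in replicate 1. For other fragments these values were 51.6% and 2.89%.

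A positive fragment was present in 6682 (80.7%) of the desert regions, against 84.4% of the regions that held other fragments, and 1598 held negative fragments alone. Among the 6682, 4896 (73.3%) were positive at 1 stage and 166 (2.48%) at all 5. Among regions of other fragments 60.2% of those with a positive fragment were positive at 1 stage and 7.98% at all 5. Of the desert regions 72.8% held 1 gene desert fragment, and 59.0% of the regions without any held 1 fragment. The part of this in the number of stages was not tested. Desert regions with a positive fragment numbered 1449 in ES, 1811 in HB, 4320 in HE1, 1395 in HE2 and 1111 in HP. HE1 also had the most positive fragments of all kinds, 101943 in replicate 1 and 34795 in replicate 2, and the part of depth in these counts was not tested.

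Gene desert fragments made up a larger part of every replicate 2 library than of its replicate 1 partner. Their share was 4.44% ± 0.497 (SD, n = 20) in replicate 1, from 3.75% to 5.19%, and 11.3% ± 0.976 (SD, n = 20) in replicate 2, from 9.24% to 13.2%. The replicates did not overlap, and replicate 2 was higher in 20 of 20 pairs, by 1.79 to 3.06 times. Replicates were not compared by a test, since each is 1 pool of transfected cells.

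**Figure D1:**
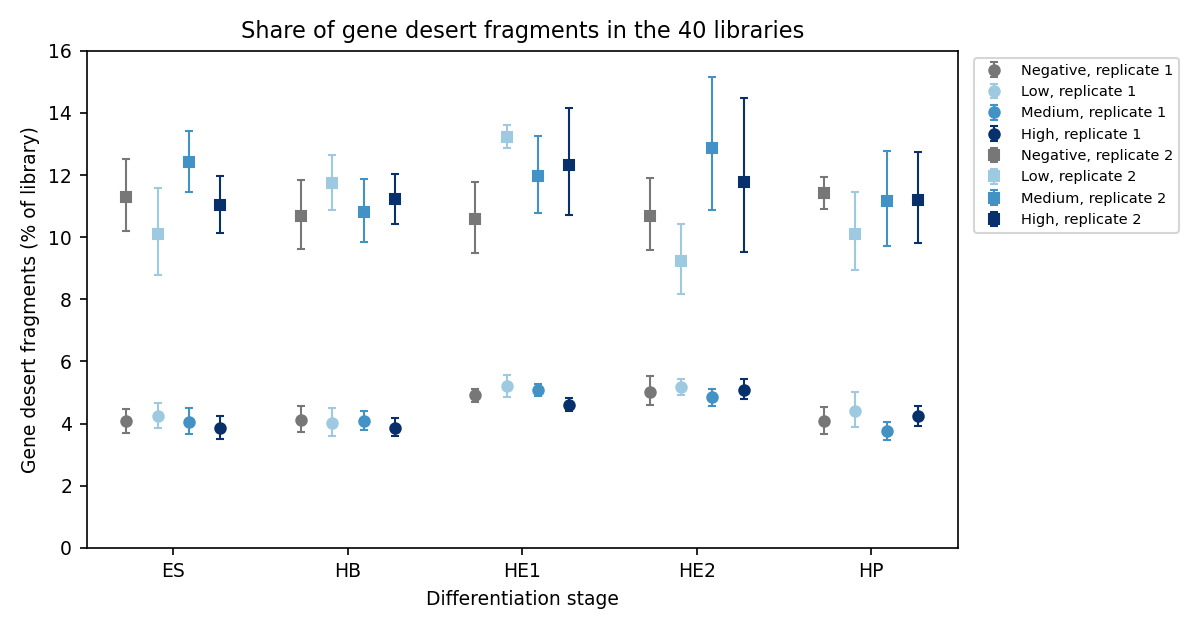
Share of gene desert fragments in each of the 40 libraries (y axis, percent of the fragments of a library) by stage (x axis) and gate (colour), with circles for replicate 1, squares for replicate 2 and Wilson 95% intervals for counting error. Replicate 1 libraries lie between 3.75% and 5.19% and replicate 2 libraries between 9.24% and 13.2%, with no order of the gates common to the stages.

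Whether desert fragments were less or more often active was asked by comparing their share among positive and negative fragments. Over the 10 sorts the share was 7.95% ± 3.82 (SD, n = 10) among positive and 7.69% ± 3.44 (SD, n = 10) among negative fragments. The difference of 0.266 percentage points did not pass the exact permutation test within stages (two-sided p = 0.818, 7776 arrangements). That test exchanged labels also across replicates, which differ in level. Paired by sort, the difference had an SD of 0.858 (n = 10). The difference did not pass that way either (exact sign-flip permutation p = 0.488). It was above 0 in 4 of 10 sorts. Without HE1 of replicate 1 it was 0.525 and without HP of replicate 1 it was 0.239, and neither passed (exact permutation p = 0.809 and p = 0.847).

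In replicate 1 the positive and negative shares nearly coincided at each stage. They were 4.03% and 4.07% in ES, 4.00% and 4.13% in HB, 4.91% and 4.90% in HE1, 5.02% and 5.03% in HE2, and 4.03% and 4.08% in HP. The mean difference was -0.0411 ± 0.0530 percentage points (SD, n = 5, exact sign-flip permutation p = 0.1875), where 5 sorts cannot give a p below 0.0625.

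In replicate 2 the shares were 11.3% and 11.3% in ES, 11.3% and 10.7% in HB, 13.2% and 10.6% in HE1, 10.6% and 10.7% in HE2, and 11.1% and 11.4% in HP. The mean difference was 0.573 ± 1.19 percentage points (SD, n = 5, exact sign-flip permutation p = 0.4375). HE1 was the stage where the Wilson 95% intervals of positive (12.8% to 13.5%) and negative (9.48% to 11.8%) did not overlap. The shares were 13.2% in Low and 12.3% in High, with Medium just below High, and without HE1 of replicate 2 the difference over the other sorts was 0.00661.

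Seen the other way, gene desert fragments were positive about as often as all other fragments of the same sort. In replicate 1, 73.7% of gene desert and 74.2% of other fragments were positive in ES, 83.2% and 83.5% in HB, 90.3% and 89.5% in HE1, 90.0% and 89.9% in HE2, and 82.3% and 82.4% in HP. In replicate 2 these were 81.4% and 81.8% in ES, 86.3% and 86.7% in HB, 97.2% and 96.5% in HE1, 70.8% and 70.7% in HE2, and 26.4% and 27.3% in HP. The low value in HP of replicate 2 went with a Negative library of 14946 fragments against 5206 positive ones. The largest difference between gene desert and other fragments was under 1 percentage point. In HE1 of replicate 2 both shares were high, which leaves little room on this scale. The odds ratio of gene desert fragments, positive against negative, was 1.28 there and between 0.968 and 1.07 in the other sorts.

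**Figure D2:**
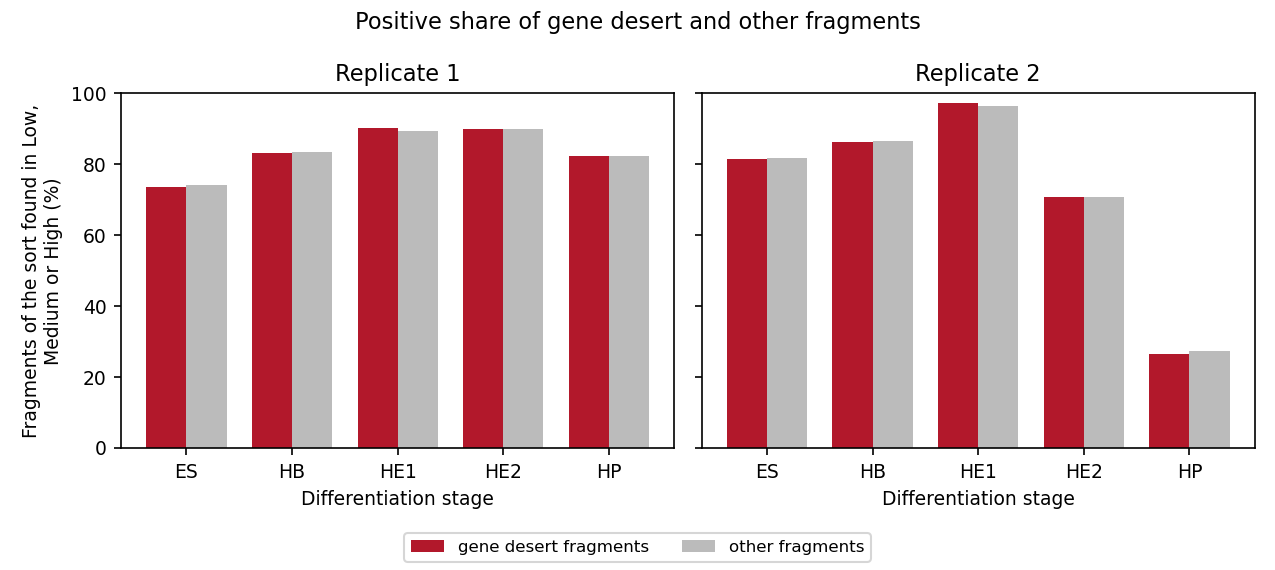
Percent of the fragments of each sort that were positive (y axis), for gene desert fragments (red) and all other fragments (grey), by stage (x axis) and replicate (panel). The bars of a pair differ by little in every sort, also in HP of replicate 2, where they were 26.4% and 27.3%.

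The share among positive fragments did not differ between stages beyond the spread between replicates. The means of both replicates were 7.68% in ES, 7.67% in HB, 9.04% in HE1, 7.80% in HE2 and 7.57% in HP, and their SD of 0.615 percentage points gave p = 0.923 in the exact permutation test. With stages exchanged within replicates, this SD gave an exact permutation p = 0.392. With any 1 sort left out this SD lay between 1.24 and 2.46, the highest without HE1 of replicate 1, because the stage concerned then has 1 replicate and the replicates differ in level, and it did not pass (exact permutation p from 0.859 to 0.980). Within replicate 1 all HE1 and HE2 libraries lay between 4.61% and 5.19% and all ES, HB and HP libraries between 3.75% and 4.42%. In replicate 2 HE1 was highest among positive fragments and HE2 lowest, so the order of the stages was not shared.

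The gates did not differ either. The mean share over 10 sorts was 7.69% ± 3.44 in Negative, 7.75% ± 3.49 in Low, 8.10% ± 4.00 in Medium and 7.92% ± 3.82 in High (SD, n = 10), with p = 0.620 in a permutation test of 100000 resamples within sorts. In replicate 1 the means ran from 4.33% in High to 4.61% in Low, and in replicate 2 from 10.9% in Low to 11.8% in Medium.

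Gene desert fragments were poorer in GC and CpG than other fragments of the same sort. Their mean GC content was 49.5% against 53.3%, a difference of -3.83 percentage points that was seen in all 10 sorts (exact sign-flip permutation test, adjusted p = 0.00419 over 15 measures, from p = 0.00195, the smallest that 10 sorts can give). GC content was 53.4% ± 1.38 against 56.1% ± 0.865 in replicate 1 and 45.6% ± 0.530 against 50.6% ± 0.553 in replicate 2 (SD, n = 5). CpG dinucleotides numbered 1.68 against 2.38 per 100 bp (adjusted p = 0.00419 in the same exact test, lower in all 10 sorts).

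More bases of gene desert fragments were soft-masked, that is marked as repeats in the reference sequence. The share was 17.9% against 13.2% (difference 4.71 percentage points, exact permutation test, adjusted p = 0.0130, higher in 9 of 10 sorts). This difference lay mainly in replicate 2, where it was 9.06 percentage points, against 0.366 in replicate 1. Length did not pass the test, with a mean of 204 bp against 208 bp (exact permutation test, adjusted p = 0.0932). The GC difference was -2.71 percentage points in replicate 1, where soft-masked bases differed by 0.366, and -4.94 in replicate 2. The parts of GC content, repeats and replicate in these differences were not tested.

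Among 11 short transcription factor motifs searched on both strands, 6 differed between gene desert and other fragments. Higher was SOX, which was searched as the letters ACAATGG and also in the variant form with the letters ACAAAGG. Also higher were OCT, searched as ATGCAAAT, GATA with the letters AGATAAG and TEAD with the letters GGAATG. Lower were the E-box (CAGCTG) and the motif of CTCF, the insulator protein that anchors chromatin loops, which was searched as a degenerate motif of 12 letters. At this limit the motifs that did not pass were AP-1 (TGAGTCA), RUNX (TGTGGT), PU.1 (GAGGAAGT), CEBP (TTGCGCAA) and RBPJ (TGGGAA). Of these, AP-1 (1.39 percentage points) and CEBP (-0.0305) passed at a limit of 50 kb, where 8 motifs differed, and RBPJ passed at 200 kb (-2.15) and with predicted transcripts counted as genes (-1.23).

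SOX factors, which act in pluripotent cells, endoderm and endothelium, had a match in 10.3% of gene desert fragments against 7.83% of others, with gene desert fragments higher in 10 of 10 sorts (exact permutation test, adjusted p = 0.00419). In replicate 1 the share with a SOX match was 12.3% in ES, 10.4% in HB, 11.5% in HE1, 11.0% in HE2 and 8.53% in HP, against 7.28%, 6.96%, 7.97%, 7.96% and 6.16% of others. In replicate 2 it was 11.6%, 8.29%, 12.1%, 8.88% and 8.12% at these stages, against 9.02%, 7.83%, 10.7%, 7.25% and 7.18% of others. OCT matches were found in 1.86% against 0.930%, also higher in all 10 sorts (adjusted p = 0.00419 by the same exact test). In replicate 1 they were most frequent in ES with 2.97% and HB with 2.93% and lay between 1.12% and 1.34% at the later stages, whereas in replicate 2 they ranged from 1.52% in ES to 2.12% in HE2. Overlapping fragments of a region each count in these motif shares. The region between Tmem161b and Ccnh, with 116 fragments in replicate 1, held 62 fragments with the OCT letters. Its part in the OCT shares was not tested.

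GATA matches were found in 5.38% of gene desert and 3.92% of other fragments (adjusted p = 0.00419 in the exact permutation test, higher in 10 of 10 sorts). In replicate 1 the GATA share among gene desert fragments was 2.11% in ES and lay between 6.94% and 8.36% at the other stages. In other fragments of replicate 1 it was 2.04% in ES and between 4.12% and 5.07% later. Replicate 2 did not share this order. There the GATA share among gene desert fragments was 3.99% in ES, 3.68% in HB, 5.56% in HE1, 5.21% in HE2 and 3.70% in HP. The region between Zfp608 and Gramd3, not found in ES, held 52 fragments with the GATA letters. Its part in the GATA shares was not tested. TEAD, the DNA-binding partner of YAP, had matches in 13.6% against 12.5% (adjusted p = 0.00732 in the exact permutation test, 9 of 10 sorts). E-box matches were found in 13.4% against 15.3% (adjusted p = 0.00419 in the exact permutation test, lower in 10 of 10 sorts).

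CTCF matches were found in 1.67% of gene desert and 3.52% of other fragments, and were lower in all 10 sorts (exact permutation test, adjusted p = 0.00419). Among gene desert fragments the share was 3.05% in replicate 1 and 0.284% in replicate 2. The difference was -2.49 percentage points in replicate 1 and -1.22 in replicate 2. Among windows of 300 bases at the centre of each region, 1.11% of the 8280 desert regions held the CTCF motif and 2.93% of the 66763 regions without a gene desert fragment, while the OCT letters were in 2.34% and 1.49%. Among all 75043 such windows, 12.4% held SOX, 5.85% GATA, 18.7% TEAD, 19.7% E-box, 23.3% RUNX, 3.59% PU.1, 9.77% AP-1 and 28.3% RBPJ letters. In desert windows and in the others, SOX letters were in 13.7% and 12.2%, GATA in 6.64% and 5.75% and TEAD in 19.7% and 18.5%. Lower in desert windows were E-box (16.3% against 20.1%), RUNX (21.6% against 23.5%), PU.1 (3.04% against 3.66%) and RBPJ (26.6% against 28.5%). AP-1 was lower there too (9.17% against 9.85%), although by fragment its difference was 0.988 percentage points. The window shares were not tested.

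Because GC content differed, the comparison was repeated within bins of 5 points of GC content, a setting chosen after the data were seen. SOX, OCT, TEAD and CTCF still passed, with differences of 1.88, 0.663, 0.947 and -1.46 percentage points. GATA (0.880, adjusted p = 0.0623 in the exact permutation test) did not, and the E-box difference turned to 0.150 (exact permutation test, adjusted p = 0.609). With predicted transcripts also counted as genes, TEAD and CTCF did not pass (1.16 and -0.799), and at 200 kb TEAD did not (0.972).

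**Figure D3:**
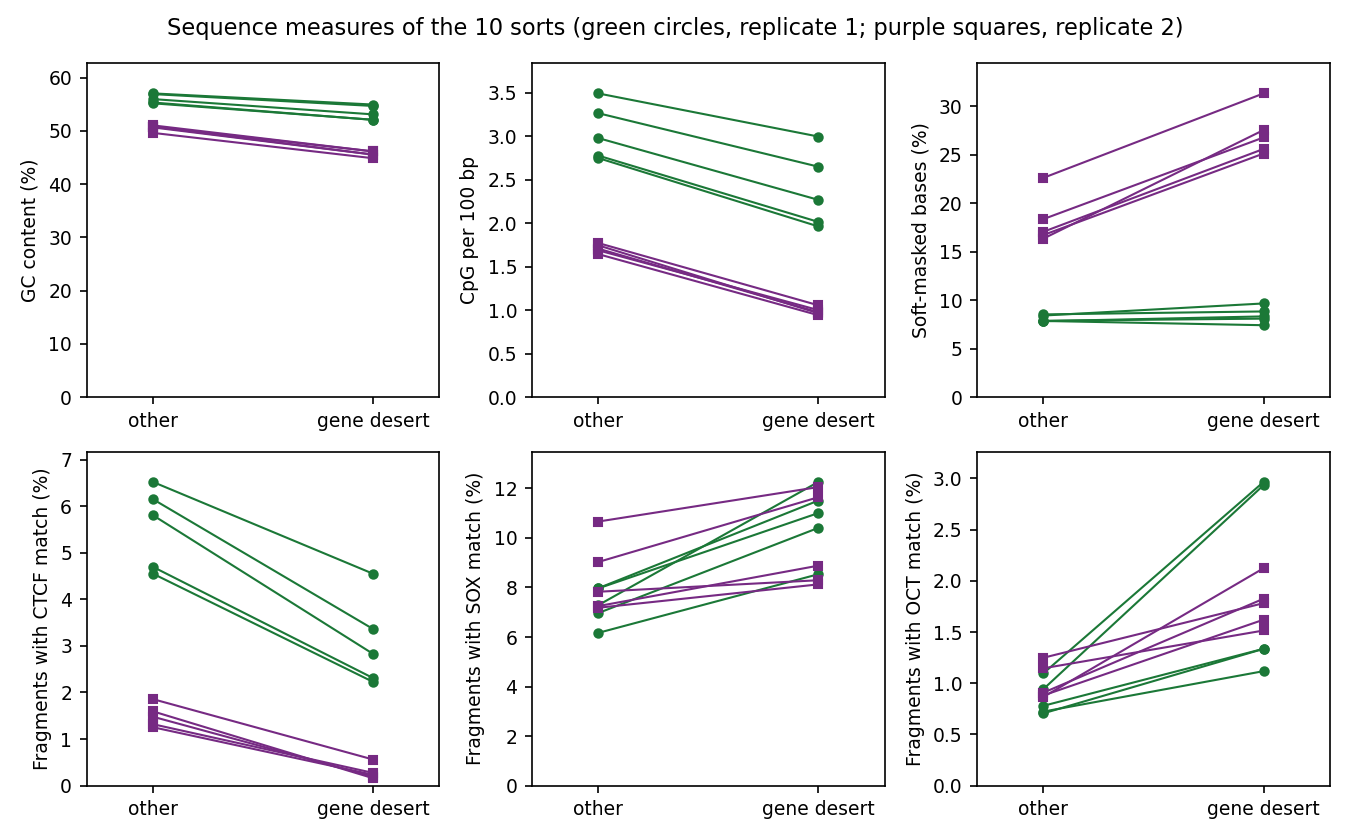
Mean GC content (%), CpG dinucleotides per 100 bp, soft-masked bases (%) and the percent of fragments with a CTCF, SOX or OCT match (y axes) in other fragments and gene desert fragments (x axis), where each line joins the values of 1 of the 10 sorts. GC, CpG and CTCF fall and SOX and OCT rise towards gene desert fragments in every sort, while soft-masked bases rise clearly in replicate 2 alone, by 9.06 percentage points on average against 0.366 in replicate 1.

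No difference between positive and negative gene desert fragments passed the test in any of the 11 motifs. None passed the exact permutation test within stages, where 0 had p under 0.05 also before adjustment. With the replicates paired 1 did before adjustment, OCT, with an exact permutation p = 0.0234 and adjusted p = 0.258. Unpaired, OCT matches were found in 2.07% ± 0.765 of positive and 1.49% ± 0.519 of negative gene desert fragments (SD, n = 10, exact permutation p = 0.0957, adjusted p = 0.920). GATA matches were found in 5.49% ± 1.91 of positive and 5.08% ± 2.53 of negative ones, and SOX matches in 10.1% ± 1.82 and 10.8% ± 3.27. With the replicates paired, neither the GATA nor the SOX difference passed (exact permutation p = 0.492 and p = 0.654).

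The 21722 gene desert fragments lay in 1342 deserts, where a desert is the interval between neighbouring curated protein-coding genes. The median desert with fragments was 473 kb wide and held 8. There were 200 deserts with 1 gene desert fragment, and 21 with at least 100, which together held 3179 fragments (14.6%). The distance to the nearest curated start site had a median of 170 kb. It was up to 200 kb for 12965 fragments (59.7%), between 200 and 500 kb for 6861 (31.6%) and beyond 500 kb for 1896 (8.73%). The farthest, at chr2:99566901-99567162, lay 2054015 bp from the start of Iftap. Just past the limit, 159 gene desert fragments lay within 1000 bp of it with a GC content of 50.2%, and the 209 fragments just short of it had 50.9%.

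The desert with most fragments lay on chromosome 8 between Foxl1, a forkhead factor of gut mesenchyme, and 1700018B08Rik (chr8:121130645-121530776). It held 268 gene desert fragments in 30 regions, 244 of them positive and 64 negative. Positive fragments numbered 11 in ES, 49 in HB, 105 in HE1, 82 in HE2 and 39 in HP, and negative ones 6, 5, 37, 11 and 8. It was thus sparsely sampled in ES in both gates.

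The desert between Zeb1 and Arhgap12 followed with 245 fragments in 12 regions, 209 positive and 79 negative. The one between Cibar2 and Gse1 (chr8:120177470-120488865) held 223 in 19 regions, with 17 positive in ES, 28 in HB, 68 in HE1, 68 in HE2 and 26 in HP. Its negative fragments numbered 10, 10, 28, 10 and 10. The desert between Gadd45g, a stress-induced growth arrest gene, and Diras2, a small GTPase, held 198 in 14 regions. In it 24 were positive in ES, 25 in HB, 65 in HE1, 50 in HE2 and 25 in HP, against 3, 6, 24, 13 and 10 negative.

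The deserts between Tmem161b and Ccnh with 184, between Rps24, a ribosomal protein gene, and Zmiz1 with 177, and between Akr1e1 and Klf6, a zinc finger factor, with 160 came next. The eighth, with 155, lay between Prok2, a secreted prokineticin, and Rybp, a subunit of a Polycomb complex. The desert between Nr2f2 and Mctp2 also held 155. In each of these 9 deserts positive fragments were found at all 5 stages.

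**Figure D4:**
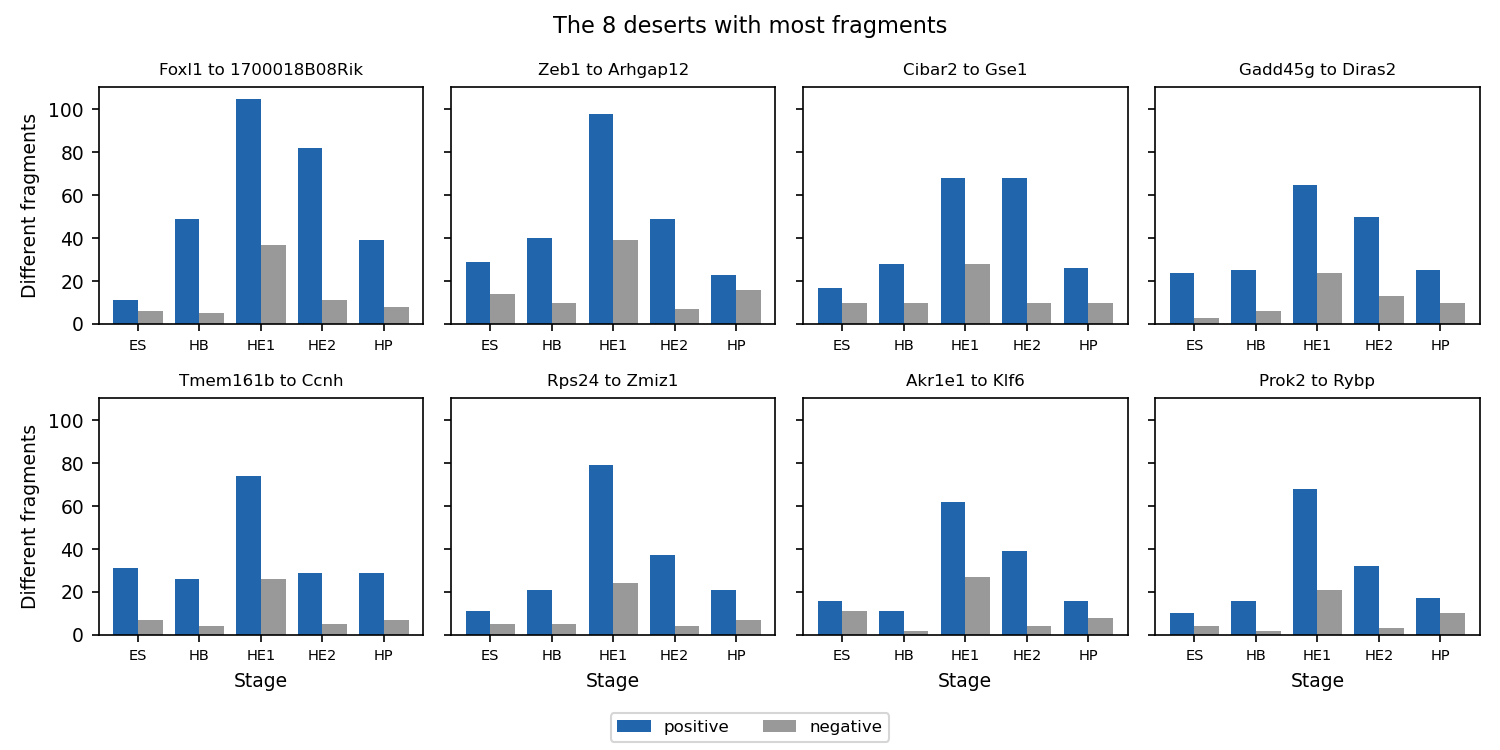
Number of different gene desert fragments (y axis) that were positive (blue) or negative (grey) at each stage (x axis) in the 8 deserts with most fragments, each panel named by its flanking genes, both replicates joined. Positive fragments outnumber negative ones at every stage in all panels and are most numerous in HE1, jointly with HE2 at 68 between Cibar2 and Gse1. Both also hold for all other fragments, with 2.77, 4.45, 3.04, 6.52 and 2.00 positive ones per negative one from ES to HP.

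Desert regions formed 329 clusters, where a cluster is a run of at least 3 desert regions with gaps of at most 10000 bp. They held 1223 desert regions (14.8%) and 4902 gene desert fragments (22.6%), and their median span was 9.49 kb. Positive fragments were found at all 5 stages in 71 clusters.

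The 3 clusters with most regions all lay on chromosome 8. The one between Cibar2 and Gse1 (chr8:120349997-120387357) had 12 regions with 172 fragments, 149 positive and 48 negative. Its positive fragments numbered 9 in ES, 18 in HB, 59 in HE1, 58 in HE2 and 18 in HP, and its negative ones 2, 6, 27, 7 and 8. The one between Foxl1 and 1700018B08Rik (chr8:121358882-121393470) had 11 regions with 80 fragments, 75 of them positive.

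The cluster between Irf8, a transcription factor of myeloid and lymphoid cells, and Foxf1, a forkhead factor of vascular and lung mesoderm, was the longest of all with 41349 bp (chr8:120877825-120919173). It had 9 regions with 34 fragments, which were positive 6 times in ES, 7 in HB, 18 in HE1 and 6 in HE2, and not in HP. Negative ones numbered 3, 1, 2, 0 and 2 from ES to HP. The cluster between Foxo1, a forkhead factor regulated by insulin signalling, and Cog6 had 8 regions with 71 fragments, 61 positive. The one between Nr5a2 and Ptprc (chr1:137073972-137097083) had 8 regions, as did one between Igsf21 and Arhgef10l with 16 fragments. The Nr5a2 cluster held 26 fragments, of which 0 were found in ES in either gate. In HB, HE1, HE2 and HP 4, 9, 6 and 4 were positive and 0, 3, 2 and 2 negative.

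The genes beside the deserts were compared by fixed lists with all curated protein-coding genes. Of all 21000 such genes, 2275 (10.8%) flanked a desert with gene desert fragments. This share was 53 of 63 (84.1%) for developmental transcription factors, 19 of 27 (70.4%) for growth factors and morphogens, 17 of 53 (32.1%) for blood and endothelial genes, 12 of 25 (48.0%) for pluripotency genes and 52 of 56 (92.9%) for neuronal adhesion and synapse genes. The lists were chosen with earlier results of these data known, and these shares are a description with no test. By the rule, a gene can flank such a desert only where a neighbouring interval reaches over 100000 bp from every curated start site. Genes with intervals of equal width were not compared, so the part of interval width in these shares and counts was not tested. The median number of gene desert fragments per flanking gene was 9 over all genes, 31 for developmental factors, 17 for growth factors, 35 for blood and endothelial genes, 27 for pluripotency genes and 28.5 for neuronal genes.

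Among developmental factors Zeb1 led with 246 fragments in its deserts. Nr2f2, a nuclear receptor of venous and lymphatic identity, had 169 and Klf4 128. Nfib, a nuclear factor of lung and brain development, had 103, of which 0 were positive in ES, 2 in HB, 47 in HE1, 27 in HE2 and 23 in HP, with 2, 1, 22, 3 and 3 negative.

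Among growth factor and signalling genes the desert of Bmp7, a bone morphogenetic protein, held 114 fragments, 102 of them positive. That of Efnb2, the arterial ephrin, held 110. Those of the Eph receptor gene Epha4 held 93, and that of Bambi, a decoy receptor of the TGF-beta family, held 66. No fragment of the Bambi desert was found in ES, while 14 were positive in HB, 31 in HE1, 15 in HE2 and 8 in HP. Its negative ones numbered 4, 10, 2 and 6 at these 4 stages.

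Among blood and endothelial genes the deserts of Meis1, a homeobox factor of blood stem cells, held 88 fragments, positive 6 times in ES, 7 in HB, 36 in HE1, 15 in HE2 and 13 in HP. Negative ones numbered 0, 3, 10, 1 and 12. The desert of Ptprc, which encodes the pan-leukocyte surface phosphatase, held 87, with 2, 4, 35, 21 and 15 positive at these stages. Its negative ones numbered 3, 0, 10, 5 and 7. Myc had 73. The desert between Runx1, the master factor of blood emergence, and Setd4 held 59, with 2 positive in ES, 4 in HB, 21 in HE1, 19 in HE2 and 7 in HP, against 1, 4, 8, 1 and 4 negative.

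Among pluripotency genes Klf4 was followed by the nuclear receptor gene Nr5a2 with 88, Sall1 with 73 and Sox2 with 49. In the Sox2 deserts 6 were positive in ES and 28 in HE1, against 0 and 4 negative. The desert of Ptprc is also one of those of Nr5a2, and 87 fragments are common to both counts.

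The neuronal list, which names genes not known for a part in blood formation, gave Flrt2 with 103, Cdh11 with 88, Tenm2 with 84 and Cdh8 with 83 fragments. These are adhesion molecules of the nervous system and other tissues. The desert between Cdh8 and Cdh11 counts for both genes. The other desert of Cdh11 is equally that of its neighbour Cdh5, so the Cdh11 count does not belong to Cdh11 alone. Positive fragments in the Flrt2 deserts numbered 11 in ES, 14 in HB, 52 in HE1, 26 in HE2 and 3 in HP, against 4, 2, 13, 4 and 11 negative. In the Cdh8 deserts 50 of the 83 fragments were found in replicate 2, against 23 of 246 for Zeb1.

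Curated RefSeq transcripts do not cover all known transcription. Of the gene desert fragments, 1703 (7.84%) lay within 1500 bp of a start site of GENCODE vM21, and for 951 of these it belonged to a lincRNA and for 286 to a gene that GENCODE calls protein-coding. Their mean GC content was 57.2%, against 49.2% for the remaining gene desert fragments, and they held 4.46 against 1.46 CpG per 100 bp. Of all gene desert fragments, 3934 (18.1%) lay inside a predicted RefSeq transcript, a count that did not leave out those 1703. When predicted transcripts were counted as well, 7453 (34.3%) stayed beyond 100000 bp. Fragments that near to a GENCODE start site made up 10.2% of the gene desert fragments in replicate 1 and 4.36% in replicate 2.

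Each region was tested whose fragments, summed over sorts and over positive and negative so that a fragment may count several times, numbered at least 20. The test was for more or fewer positive than negative fragments with sorts as strata. Of 216 desert regions tested, 0 had more and 3 (1.39%) had fewer positive fragments (Cochran-Mantel-Haenszel test, Benjamini-Hochberg adjusted over all 5530 regions). Over all regions tested, 0% had more and 0.181% fewer. At an unadjusted p under 0.05, 0 desert regions had more and 12 fewer, beside 0.886% and 2.57% of all regions. The median odds ratio was 0.984 in desert regions and 0.995 over all regions. The test counts fragments as independent, and overlapping ones are not, so its p-values cover counting error alone.

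The 3 regions came from replicate 2 alone. The region between Chst1, a sulfotransferase, and Syt13 (chr2:92809520-92809773) held 12 fragments, with 6 positive and 11 negative in HB and 0 positive and 7 negative in HE2 (Cochran-Mantel-Haenszel test, odds ratio 0.0941). The region between Lhx8, a LIM homeobox factor, and Tyw3 (chr3:154477557-154477878) held 21, with 15 positive and 0 negative in HB, 2 and 15 in HE1, 13 and 11 in HE2, and 0 and 17 in HP (odds ratio 0.362). The region between Tbx18, a T-box factor, and Nt5e (chr9:87998553-87998938) held 8, with 1 positive and 3 negative in HB, 1 and 5 in HE1, 4 and 7 in HE2 and 1 and 6 in HP (odds ratio 0.222). Adjusted p-values over all regions tested were 0.000314, 0.0144 and 0.0242. Many of their fragments had nearly the same ends. When ends within 5 bp were taken as the same, 4, 9 and 2 different fragments were left, and with such fragments collapsed in each library 0 desert regions passed.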

How the data were processed

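For each library the authors deposited a list of different fragments as start and end positions on mm10, without counts, scores or molecular identifiers. Per the labels and methods, the authors trimmed reads with Trim Galore, aligned pairs with Bowtie2 (insert up to 600 bp), kept proper pairs of mapping quality over 40 with SAMtools, removed duplicates and filtered with bedtools. Versions are not given in the sources used here. Inserts had been amplified with 25 to 30 PCR cycles, so near-identical fragments may come from 1 molecule, and Wilson 95% intervals and the upper limit taken for 0 (3 counts) speak of counting error alone. Which filters on background and open chromatin the lists had passed is not stated.

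Fragments were placed by their centre on RefSeq transcripts of GRCm38, the assembly named mm10, and 23 fragments on scaffolds were left out. There were 45756 curated transcripts of 26180 genes. Libraries were grouped by their titles. Positive and negative shares were compared by exchanging labels within stages, members and others by flipping the signs of the 10 sort differences (1024 arrangements), adjusted over 15 measures, and regions by a continuity-corrected Cochran-Mantel-Haenszel test. The replicate numbers pair the samples, because the methods derive all stages of an experiment from 1 transfection, and all 20 libraries of replicate 2 had a larger share of gene desert fragments than their partners. Simulated data over the same 5530 regions were used to check that region test. With odds changed 6 times in 200 regions it called 87 of 100 lowered and 17 of 100 raised regions and 1 unchanged one, and with odds changed 3 times 43 and 2. The simulated fragments were drawn as independent, unlike the near-identical ones in the data.

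The alternatives were other distance limits, predicted transcripts, collapsed fragments, shared fragments left out, other region and cluster settings, the replicate block and leaving out replicates or sorts. The named deserts and regions were those with most fragments (8 deserts, 8 regions, 5 clusters), regions past the test and the 4 leading genes of each list. The fragments, lists and tests were chosen with earlier results of these data known. Scripts used Python 3.11.15, numpy 2.4.6, pandas 2.3.3, scipy 1.17.1 and matplotlib 3.10.9.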

Additional observations from a re-analysis of the deposited data

Results flagged for a closer look

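The share of gene desert fragments was higher among positive than among negative fragments of HE1 in both replicates, by 1.31 percentage points on average (0.00948 and 2.60). It was lower in both replicates of HE2, by -0.0534 on average, and of HP, by -0.179. These opposite directions drew attention to the stages. The SD of the stage differences was 0.603 and did not pass an exact permutation test of stages (p = 0.359, or p = 0.333 when stages were exchanged within replicates).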

How the results depend on the processing

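With the replicate block, the difference in share between positive and negative fragments (0.266 percentage points) had an exact permutation p = 0.488, the SD of 0.615 between stages p = 0.392, and 0 motifs differed between positive and negative gene desert fragments, so the block changed none of these calls. Without it the test per region called 4 regions.

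The number of gene desert fragments was 46226 at a limit of 50 kb, 8757 at 200 kb and 7453 with predicted transcripts. Clusters numbered 176 with gaps of at most 5000 bp and 615 with 25000 bp. The positive-minus-negative difference lay between -0.0411 and 0.573 with a replicate left out, and reversed without replicate 2. With a replicate left out, the GC difference lay between -4.94 and -2.71, CpG between -0.725 and -0.675 and soft-masked bases between 0.366 and 9.06, length between -8.42 and -0.0295 bp, and 0 motifs passed, since 5 sorts cannot pass, against 6 to 7 with a sort left out. Soft-masked bases also missed the threshold at 200 kb (5.87, adjusted p = 0.0521, exact permutation). Within GC bins, a setting chosen after the data were seen, 4 motifs passed. Length passed with predicted transcripts (-9.45 bp) and without ES of replicate 2 (-5.60 bp). The regions that passed numbered 5 with a summed count of at least 10 fragments, 1 with at least 40, 0 with near-identical fragments collapsed, 1 at 200 kb, 1 without fragments shared between Negative and positive libraries, 0 to 4 with a replicate left out and 1 to 3 with a sort left out, the lowest without HB, HE1 or HE2 of replicate 2. Motif differences that turned sign were, for RUNX (-0.0414 in all), 0.0908 with collapsed fragments, 0.0772 without shared fragments and -0.511 to 0.428 with a replicate and 0.0339 to 0.177 with a sort left out, for PU.1 (0.0969) -0.118 at 200 kb, -0.329 to 0.523 with a replicate left out and -0.0280 without HP of replicate 1, for AP-1 (0.988) -0.114 to 2.09 with a replicate left out, and within GC bins RBPJ 0.155 and the E-box 0.150. The causes were not tested. Small libraries, down to 654 fragments, limit single shares.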
